A study of Mus musculus with 13 samples.

Results

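Ehf and 9 other members of the ETS family of transcription factors (Elf3, Elf1, Elf2, Ets1, Ets2, Etv4, Etv5, Etv6 and Gabpa) were followed through 13 libraries of cultured 4T1-Thy1.1 cells. The 10 genes were chosen by name out of 13222 genes listed. Ehf entered because its value rose with IL-17A in these same libraries, so its values in IL-17A against control are a description and are given with no test, and the same holds for the comparisons that share the control or the IL-17A libraries. The other members were added to ask whether the rise of Ehf was shared by epithelial or other ETS factors. All 10 had an entry, and 9 passed the filter on low values. Etv5 did not.

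4T1 is a mammary carcinoma line of BALB/c mice, here a subline carrying the Thy1.1 surface marker, and every group was made from it. Cells were cultured for 48 hours with no addition (control, n = 3), with 25 ng/mL of the cytokine interleukin 17A (IL-17A, n = 3), with 200 ng/mL of the anthracycline doxorubicin (DOX, n = 4) or with DOX at 200 ng/mL together with IL-17A at 25 ng/mL (DOX+IL-17A, n = 3). The model is a cell line in a dish, with no tumor around it, and IL-17A was added as protein. The libraries read the 3′ ends of mRNA, so a value does not scale with transcript length, and values are reads scaled to a common library size and corrected by TMM, a factor for RNA composition.

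ETS factors share a DNA-binding region, the ETS domain, which reads sites built around the core GGAA. Ehf and Elf3 belong to the epithelium-specific branch of the family, whose members are expressed mainly in epithelia and regulate genes of epithelial differentiation and inflammation. Ets1, Ets2, Etv4 and Etv5 are known for acting downstream of MAP kinase signaling, Etv6 is mainly a repressor, and Gabpa is the DNA-binding subunit of a widely expressed activator. IL-17A signals through a receptor made of Il17ra and Il17rc and raises chemokines and acute phase genes in epithelial cells.

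The relation of the other members to Ehf is seen in the coding sequence of the ETS domain. The most alike ungapped stretch of 24 codons among 14 ETS genes (the 10 members and Etv1, Elk1, Elk3 and Spib, described below) is shown for Ehf, for Elf3 and Elf2 as its nearest and next nearest relatives among them, for Ets1 and Etv4 as members of other branches, and for Spib as the least alike. Capitals mark bases that differ from Ehf at the same place. The stretches were read from the GENCODE vM21 transcripts (GRCm38, the same assembly as mm10) in the sense of the gene.
Ehf: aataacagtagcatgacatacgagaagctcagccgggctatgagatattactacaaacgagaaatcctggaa
Elf3: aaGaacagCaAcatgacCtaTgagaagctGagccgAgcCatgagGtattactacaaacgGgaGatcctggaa
Elf2: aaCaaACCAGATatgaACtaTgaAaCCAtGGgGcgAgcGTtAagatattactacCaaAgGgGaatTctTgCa
Ets1: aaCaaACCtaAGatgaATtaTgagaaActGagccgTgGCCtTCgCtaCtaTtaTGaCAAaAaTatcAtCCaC
Etv4: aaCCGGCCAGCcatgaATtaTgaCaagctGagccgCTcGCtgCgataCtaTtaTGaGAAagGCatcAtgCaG
Spib: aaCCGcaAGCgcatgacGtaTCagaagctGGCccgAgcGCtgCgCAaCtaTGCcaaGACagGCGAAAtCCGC
Elf3 had 61 of these 72 bases in common with Ehf, Elf2 43, Ets1 and Etv4 41 each, and Spib 37. Over the 69 amino acids that could be aligned in all 14 genes, Elf3 was 87.0% identical to Ehf. The other 8 members lay between 44.9% (Etv6) and 53.6% (Elf2). Ehf lies on chromosome 2, at chr2:103263433-103303278 on the minus strand, and no other annotated gene overlaps it. Elf3 lies at chr1:135253575-135258568, also on the minus strand, where an antisense transcript overlaps it. Elf1 overlaps Wbp4, Gabpa overlaps Atp5j and Elk3, described below, overlaps Cdk17, each on the opposite strand. An antisense transcript also overlaps Ets1. Elf2 is overlapped by 1 annotated gene on its own strand and 2 on the other, and Etv6 by 2 and 3. The strand setting of the read counting is not given in the sources used here, so reads of these overlapping genes may not be fully separated.

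Libraries held 4445592 to 16930600 reads on listed genes, and 3 reads, taken as the smallest detectable amount, correspond to a value of 0.183 to 0.613 (counting error only). The labels do not say that replicates were separate cultures, so p-values measure the spread between these libraries, which may be technical. Control replicate 1 stood apart from the other libraries. On the second principal component of all tested genes, it scored 74.7 against −42.9 to 23.4 in the others. It was the highest control in 6 of the 8 tested members other than Ehf (75%) against 40.6% of all tested genes, and over 1.5 times both other controls in 5 of 8 (62.5%) against 21.7%. DOX replicate 1 held skeletal muscle markers at a summed value of 223 (3.93 to 30.6 in the other libraries) and red blood cell markers at 66.5 (0 to 14.4). The 8 mammary epithelial markers were all listed, with summed values of 2020 to 2433 in control, 1781 to 2172 in IL-17A, 1040 to 1161 in DOX and 925 to 1181 in DOX+IL-17A libraries. None of 4 endothelial markers had a listed value, and of 7 immune markers 4 did, at a summed value of 10.6 to 51.3. Of 5 fibroblast markers 4 were listed, at a summed value of 23.8 to 97.8, highest in control replicate 1, where the next highest library had 64.8. The part of these differences in the results was not tested, and values without control replicate 1 are given where they change a reading.

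Ehf was lowest in control cells and highest in cells given both agents, and each agent alone lay between. Control libraries had values of 7.44, 3.41 and 3.06, and DOX libraries 13.04, 12.4, 15.1 and 8.76. IL-17A libraries had 30.3, 20.9 and 21.3, and DOX+IL-17A libraries 46.6, 51.8 and 45.8. The 4 groups did not overlap, in the order control, DOX, IL-17A, DOX+IL-17A. The reads behind these values were 26 to 56 per library in control, 98 to 162 with DOX, 133 to 269 with IL-17A and 228 to 733 with DOX+IL-17A. Group means were 4.64 ± 2.43 (SD, n = 3) in control, 12.3 ± 2.64 (SD, n = 4) with DOX, 24.2 ± 5.31 (SD, n = 3) with IL-17A and 48.1 ± 3.29 (SD, n = 3) with DOX+IL-17A.

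**Figure D1:**
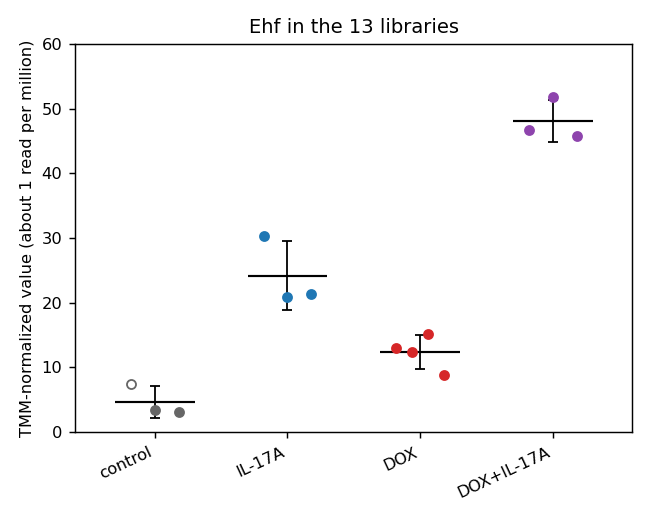
Ehf in each of the 13 libraries, as TMM-normalized value by group; points are libraries, the open circle is control replicate 1, horizontal lines are group means and bars are ± 1 SD. The 3 DOX+IL-17A libraries sit between 45.8 and 51.8, above every library of the other groups.

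On the log2(value + 1) scale, which understates the change of low genes, Ehf was higher by 2.22 ± 0.32 (SE) in IL-17A than in control cells, a ratio of means of 5.21. The same difference without control replicate 1 was 2.55. For DOX against control it was 1.298 ± 0.301, and for DOX+IL-17A against control 3.20 ± 0.32 (1.63 and 3.53 without control replicate 1). Between DOX+IL-17A and IL-17A cells it was 0.98 ± 0.32, a ratio of means of 1.99. These 4 comparisons share libraries with the one Ehf was chosen from. A call required a change of more than 2-fold and an adjusted p below 0.05 throughout. Of the 12319 genes tested, 0.00812%, which is 1 gene, were called higher in IL-17A than in control cells and 0% lower, while voom and edgeR called 0. That 1 gene was Ehf, for which the call is no test. Since the choice used this contrast, nothing is read from it.

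The comparison of DOX+IL-17A with DOX used neither the control nor the IL-17A libraries in its means, but its SE drew on the spread in all 13 libraries. Ehf was chosen with earlier results of these data known, so the p-values here are a description and no independent support. In DOX+IL-17A against DOX Ehf rose by 1.90 ± 0.30 (SE) on the log2(value + 1) scale, a ratio of means of 3.90. The adjusted p was 0.0092 from limma with Benjamini-Hochberg adjustment over all genes. All 3 DOX+IL-17A libraries lay above all 4 DOX libraries, and the exact 2-sided permutation test gave p = 0.0571, the smallest p that 3 against 4 libraries allow. Of all genes tested, 0.114% were called higher and 0.325% lower in this comparison. The call rested on few libraries: the adjusted p from limma was 0.0502 without DOX replicate 4, 0.0855 without DOX+IL-17A replicate 3 and 0.0569 without DOX+IL-17A replicate 5, while the difference stayed between 1.76 and 2.001 when any library was left out. Without DOX replicate 1, the library with muscle and red blood cell markers, it was 1.94 (adjusted p = 0.0183, limma).

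Adding IL-17A raised the mean of Ehf by 19.5 units in the absence of DOX and by 35.8 units in its presence. The first of these is the comparison Ehf was chosen from, so the difference between them is a description, with no test.

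None of the 8 tested members other than Ehf was called in IL-17A against control, where 0.00812% of all genes were called higher and 0% lower. A count of 0 is thus near the background. The differences of these 8 members ran from −0.76 (Etv4) to 0.03 (Elf3) on the log2(value + 1) scale. Of the 8 members, 0 had an unadjusted p under 0.05, against 380 of the 12319 genes tested, and the lowest adjusted p was 0.959 (limma). The upper ends of their 95% intervals lay between 0.24 (Etv4) and 0.65 (Elf3). In no member did the IL-17A and control libraries separate, in either direction, against 3.17% of all tested genes that were higher and 2.87% that were lower with no overlap. Without control replicate 1 the 8 differences ran from −0.14 to 0.16, 4 of them above 0, and 0 were called.

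**Figure D2:**
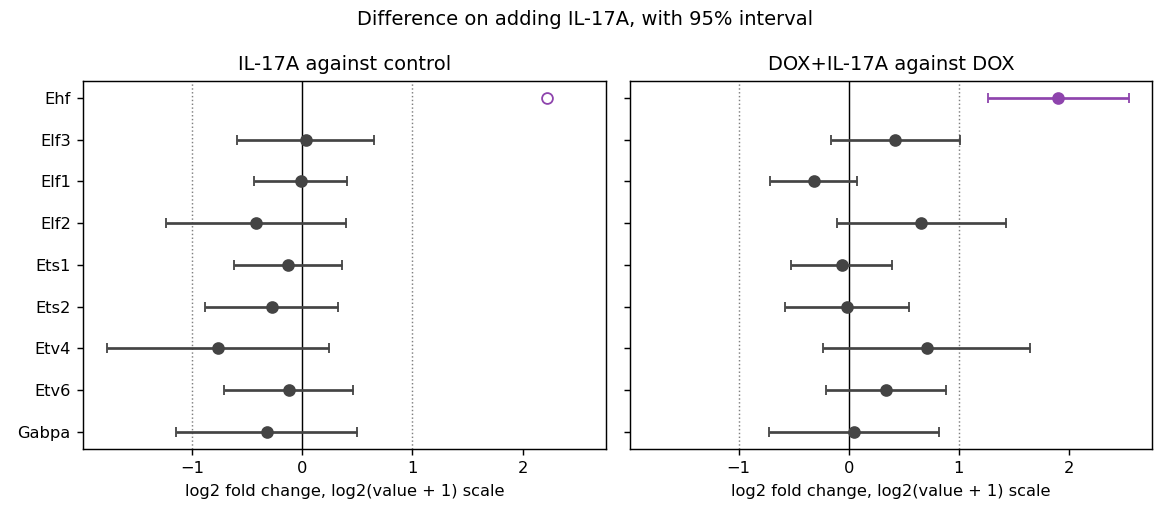
Difference on adding IL-17A to untreated cells (left) and to DOX-treated cells (right) for the 9 tested members, as log2 fold change on the log2(value + 1) scale (horizontal axis); points are estimates from limma, bars are 95% intervals, dotted lines mark a 2-fold change, and the open point, drawn without an interval, is Ehf in the comparison it was chosen from. In the right panel the interval of Ehf begins at 1.26, and the intervals of the other members include 0 in both panels.

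Elf3, the closest relative of Ehf in sequence, had its lowest values with DOX. Its control libraries had values of 14.7, 21.9 and 17.2 and its IL-17A libraries 13.4, 20.9 and 21.1, with complete overlap. DOX libraries had 8.29, 12.5, 13.1 and 10.9, and DOX+IL-17A libraries 13.9, 14.0 and 17.9. DOX libraries thus lay below all control libraries and below all DOX+IL-17A libraries. Neither difference passed the test: DOX against control was −0.64 ± 0.27 (SE) with an adjusted p of 0.108, and DOX+IL-17A against DOX was 0.42 ± 0.27 with an adjusted p of 0.973 (limma). In IL-17A against control Elf3 differed by 0.03 ± 0.29 (SE), with a 95% interval of −0.59 to 0.65.

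Elf1 and Elf2, related factors that are expressed in many tissues, also stayed short of a call. Elf1 had values of 80.4, 88.6 and 76.6 in control, 67.7, 75.1 and 104 in IL-17A, 87.5, 72.6, 80.5 and 78.9 in DOX and 60.1, 68.4 and 62.9 in DOX+IL-17A libraries. Its DOX+IL-17A libraries lay below every DOX and control library, and against DOX they had a difference of −0.32 ± 0.19 (SE) and an adjusted p of 0.952 (limma). Elf2 had values of 31.8, 8.16 and 19.0 in control, and this spread covered 12.5, 10.2 and 15.7 in IL-17A and 14.9, 15.8 and 16.7 in DOX+IL-17A libraries. Its DOX libraries, at 8.69, 7.88, 11.9 and 10.5, lay below all DOX+IL-17A libraries. The difference of DOX+IL-17A against DOX was 0.66 ± 0.36 (SE) with an adjusted p of 0.922. For DOX against control Elf2 differed by −0.78 ± 0.36 (adjusted p = 0.132, limma), and this became a call without control replicate 3 (−1.27, adjusted p = 0.0132) and with DESeq2 (−1.05, adjusted p = 0.0347). Without control replicate 1 it was −0.35 (adjusted p = 0.494, limma).

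Ets2 and Ets1 had the highest mean values of the 10 genes in every group. Ets1 stood at 196, 99.0 and 119 in control and 115, 116 and 132 in IL-17A libraries. With DOX it was at 184, 191, 183 and 192, and with DOX+IL-17A at 150, 212 and 182. Control replicate 1 alone was as high as the libraries with DOX, and the other control and IL-17A libraries were all lower than these. Against control the difference was 0.50 ± 0.22 (SE) for DOX (adjusted p = 0.106) and, for both agents together, 0.44 ± 0.23 (adjusted p = 0.200). Without control replicate 1 these became 0.78 (adjusted p = 0.0051) and 0.72 (adjusted p = 0.0122), which passed the adjusted p of limma but stayed under a 2-fold change. Ets2 ranged from 175 to 405 in control, 157 to 299 in IL-17A, 183 to 243 in DOX and 201 to 212 in DOX+IL-17A libraries, all groups overlapping, and its highest value was again that of control replicate 1.

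Etv4, a PEA3 factor of the MAP kinase branch, followed the same library. Control replicate 1 had a value of 83.6, whereas the other control libraries had 23.7 and 20.3. IL-17A libraries had 12.2, 15.1 and 41.8, DOX libraries 19.6, 19.2, 15.0 and 14.1, and DOX+IL-17A libraries 28.2, 28.4 and 27.5. DOX+IL-17A libraries lay above all DOX libraries, by 0.71 ± 0.44 (SE) with an adjusted p of 0.973 (limma). DOX against control was −0.99 ± 0.44 with an adjusted p of 0.119, which was −0.37 without control replicate 1 and became a call with DESeq2 (−1.38, adjusted p = 0.0208). Etv5, of the same branch, had values of 0 to 1.05 and 0 to 13 reads per library, near the smallest detectable amount, and no fold change is given. All 3 IL-17A libraries had 0 reads of it.

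Etv6 and Gabpa overlapped between all groups. Etv6 ranged from 22.4 to 31.6 in control, 19.0 to 35.5 in IL-17A, 19.6 to 29.0 in DOX and 26.3 to 36.2 in DOX+IL-17A libraries. Gabpa had 51.3, 16.0 and 21.0 in control libraries, the first of them replicate 1, and 16.8 to 28.0 in IL-17A, 19.2 to 29.8 in DOX and 16.9 to 34.6 in DOX+IL-17A libraries. None of their differences in the 5 comparisons had an unadjusted p under 0.05 (limma).

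**Figure D3:**
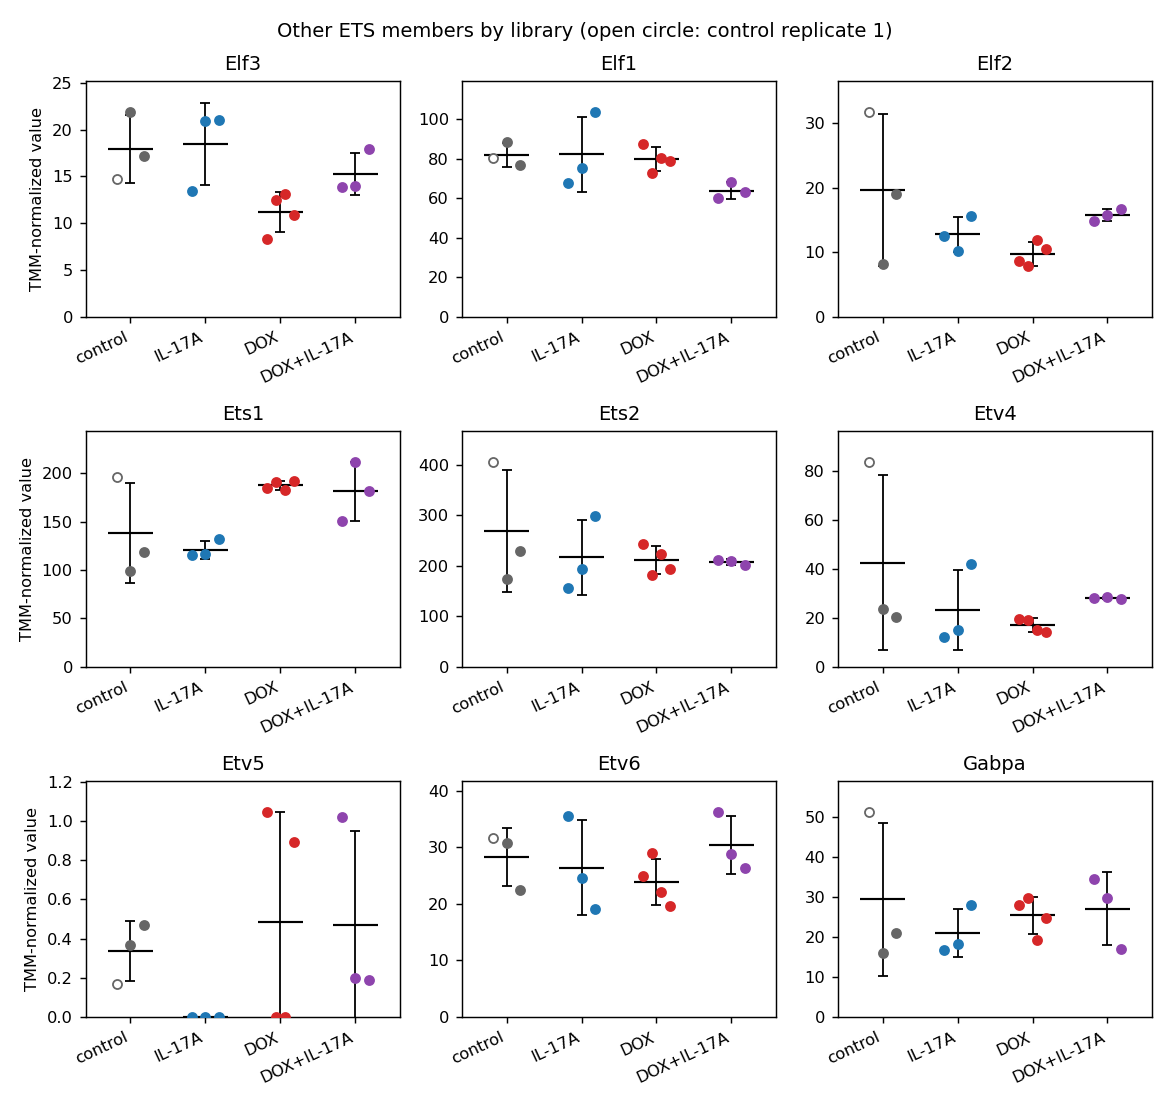
The 9 members other than Ehf in each library, as TMM-normalized value by group, each panel with its own axis from 0; points are libraries, the open circle is control replicate 1, lines are group means and bars are ± 1 SD. Control replicate 1 is the highest control for Elf2, Ets1, Ets2, Etv4, Etv6 and Gabpa, and no panel repeats the order of the groups seen for Ehf.

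When IL-17A was added to DOX-treated cells, none of the 8 tested members other than Ehf was called. Of all genes, 0.114% were called higher and 0.325% lower, so that a count of 0 is near the background. The differences of the 8 members in DOX+IL-17A against DOX ran from −0.32 to 0.71, with a median of 0.19 (−0.03 over all genes tested). None had an unadjusted p under 0.05, against 782 of the 12319 genes tested, and the lowest adjusted p was 0.922 (limma). Elf3, Elf2 and Etv4 were higher with no overlap between the groups, 3 of 8 members where 4.66% of all tested genes did so, and Elf1 was lower, where 5.61% did so. Etv4 had a ratio of means of 1.65.

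None of these 8 members was called in DOX against control either, where 9.15% of all genes were called higher and 6.18% lower. Of the 8, 4 (Elf3, Elf2, Ets1 and Etv4) had an unadjusted p under 0.05 (limma), as did 4491 of the 12319 genes tested. The count of 4 is thus not far from the background, and Ets1 had the lowest adjusted p, 0.106 (limma). Elf3 and Etv4 were lower with no overlap, as were 15.2% of all tested genes; none was higher with no overlap, as were 18.5%. In DOX+IL-17A against control 6.95% of genes were called higher and 5.95% lower, and in DOX+IL-17A against IL-17A 4.92% each way, again with 0 of the 8 members called. The interaction of IL-17A and DOX (effect of IL-17A in DOX-treated minus that in untreated cells) passed an adjusted p of 0.05 for 0% of genes (556 had an unadjusted p under 0.05 in limma) and for 0 of the 8 members. Of the 8 members 1 had an unadjusted p under 0.05, and without control replicate 1 it was 0.

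Across the 13 libraries, the likeness of each gene to Ehf was measured by Pearson's r of log2(value + 1) over the 8197 other tested genes with a mean value of at least 10. It is a description, since the libraries share the 4 conditions and scaling. Members other than Ehf lay between −0.55 (Elf1) and 0.30 (Ets1), and Ets1 ranked 1938 among these genes. The 5 most alike genes were Zc3h12a (r = 0.90), Il24 (0.89), Cxcl5 (0.89), Il1a (0.88) and Neurl3 (0.86). Zc3h12a encodes an RNase that limits inflammatory transcripts, Il24 and Il1a encode cytokines and Cxcl5 a neutrophil-attracting chemokine. Zc3h12a had a mean value of 12.0 in control, 21.7 with DOX, 51.2 with IL-17A and 73.6 with DOX+IL-17A, the same order of means as Ehf. Unlike those of Ehf, its DOX libraries (10.3 to 33.8) overlapped control (8.37 to 15.6) and IL-17A libraries (33.5 to 67.6). Il1a had means of 6.24, 24.3, 45.2 and 124 in the same groups, and its DOX libraries (7.13 to 42.6) overlapped its IL-17A libraries (24.5 to 57.0). Il24 and Neurl3 differed from Ehf in that DOX alone and IL-17A alone had similar means, 35.1 and 34.0 for Il24 and 48.6 and 44.1 for Neurl3.

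Among 17 further ETS genes of the mouse, 9 were listed and all 9 were tested (Elf4, Elk1, Elk3, Elk4, Erf, Etv1, Etv3, Etv3l and Spib), and the other 8 were not analysed here. None was called in IL-17A against control, and their median difference was 0.04 (0.02 over all genes tested). On adding IL-17A to DOX-treated cells 0 of the 9 were called higher and 1 lower (Spib), where 0.114% of all genes were called higher and 0.325% lower. Their median difference there was 0.16 (−0.03 over all genes tested). Etv1 and Elk1 were higher with no overlap, as were 4.66% of all tested genes, and Spib was lower with no overlap, as were 5.61%. In DOX against control 2 of the 9 were called higher (Elk1 and Spib) and 1 lower (Etv1), where 9.15% of all genes were called higher and 6.18% lower. Spib passed the filter on low values only through its DOX libraries. Etv1, a PEA3 factor like Etv4, had values of 50.6, 82.0 and 81.7 in control and 65.6, 60.7 and 77.03 in IL-17A libraries. It had 18.8, 18.5, 16.5 and 16.1 in DOX and 26.8, 25.1 and 25.2 in DOX+IL-17A libraries. All 7 libraries with DOX lay below the 6 without. Etv1 fell by 1.94 on the log2(value + 1) scale with DOX (SE 0.22, adjusted p = 4.5e-05, limma) and by 1.41 with DOX+IL-17A (adjusted p = 0.0012), each against control.

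Elk1 and Elk3 bind with serum response factor at immediate early genes. Elk1 rose with DOX, from 7.61, 16.5 and 16.1 in control to 28.7, 25.0, 31.5 and 28.5, by 1.096 ± 0.281 (SE, adjusted p = 0.0124), and DOX+IL-17A libraries had 38.0, 36.0 and 36.5. Control replicate 1 was here the lowest library, and without it the difference with DOX was 0.76 (adjusted p = 0.0404, limma), no longer 2-fold. Elk1 shares its locus with Uxt on the same strand, so its reads may be split. Elk3 had values of 134, 116 and 135 in control and 68.3, 73.7, 62.4 and 53.3 in DOX libraries. It fell by 0.99 on the log2(value + 1) scale with DOX (adjusted p = 0.0025, limma), just under a 2-fold change, and by 1.09 with DOX+IL-17A (adjusted p = 0.0028). Both values lie at the 2-fold limit. The call with DOX+IL-17A was lost with library size only (−0.914) and without DOX+IL-17A replicate 3 (−0.989). The difference with DOX became a call with DESeq2 (−1.03), with a pseudocount of 0.1 (−1.001) and without control replicate 3 (−1.06), DOX replicate 1 (−1.02) or DOX replicate 2 (−1.06).

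Spib, a factor known from B and plasmacytoid dendritic cells, was close to the smallest detectable amount in all libraries but those with DOX alone. DOX libraries had values of 9.09, 2.74, 8.95 and 12.3, from 113, 25, 64 and 138 reads. Control libraries had 0.34, 0 and 0.47, IL-17A libraries 1.69, 0 and 0, and DOX+IL-17A libraries 0, 0 and 0.31, from at most 15 reads. The DOX libraries did not overlap any other group. Spib was called higher in DOX against control (2.75 ± 0.46 SE, adjusted p = 0.0009) and lower in DOX+IL-17A against DOX (−2.94 ± 0.46, adjusted p = 0.0090, limma). Spib passed the filter on low values only through its DOX libraries, the group where it was high, so both calls are a description. Their size depends on the pseudocount. The second call was lost with voom (adjusted p = 0.188), edgeR (0.161), DESeq2 (0.0948), a pseudocount of 0.1 (0.0555) and the replicate block (0.119), and without DOX replicate 4 (0.0502), DOX+IL-17A replicate 3 (0.0796) or DOX+IL-17A replicate 5 (0.0506). Immune markers were also highest with DOX, at a summed value of 27.1 to 51.3 against 10.6 to 21.3 in the other groups. Csf1r (16.6 to 35.01 in DOX libraries) and Cd68 (9.09 to 18.0) made up most of this sum, while Ptprc, the pan-leukocyte marker CD45, was higher in DOX+IL-17A libraries (2.45 to 3.57) than in DOX libraries (0.64 to 1.42). The part of these markers in the values of Spib was not tested.

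**Figure D4:**
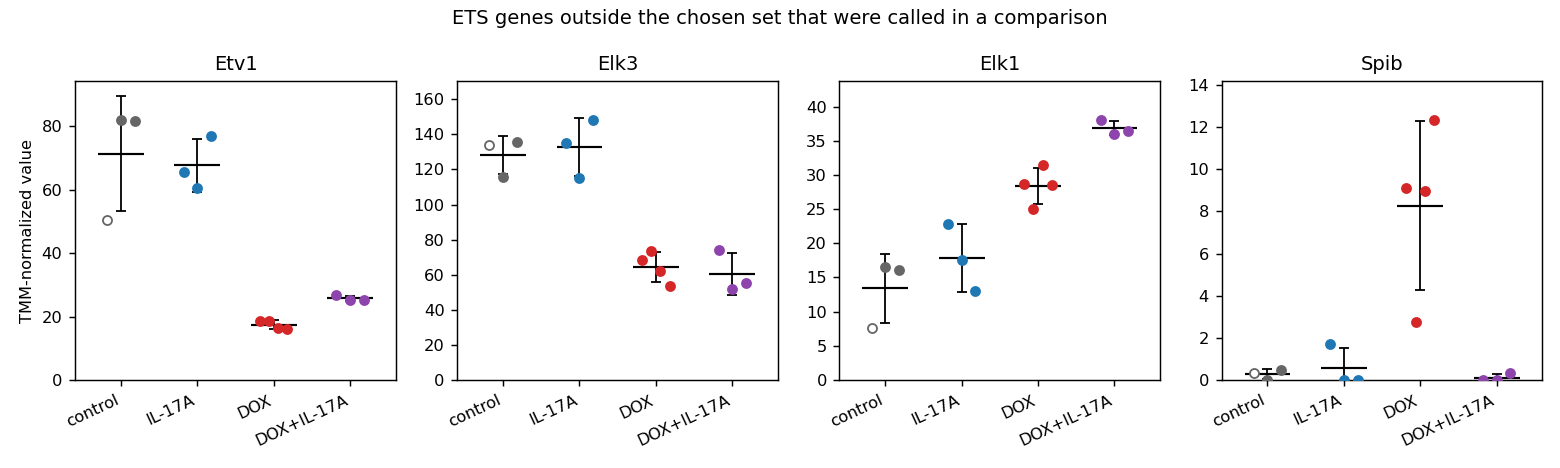
Etv1, Elk3, Elk1 and Spib in each library, as TMM-normalized value by group, each panel with its own axis from 0; points are libraries, the open circle is control replicate 1, lines are group means and bars are ± 1 SD. Etv1 and Elk3 are lower and Elk1 higher in the 7 libraries with DOX, and Spib is above 2 only with DOX alone.

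Identity with Ehf and the difference on adding IL-17A to DOX-treated cells can be set side by side. In DOX+IL-17A against DOX, Elf3, at 87.0% identity with Ehf over the shared region, differed by 0.42, and Elf2, at 53.6%, by 0.66. Etv4, at 47.8%, differed by 0.71 and Elf1, at 52.2%, by −0.32. Spib, at 39.1%, differed by −2.94. No relation between identity and change was tested.

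**Figure D5:**
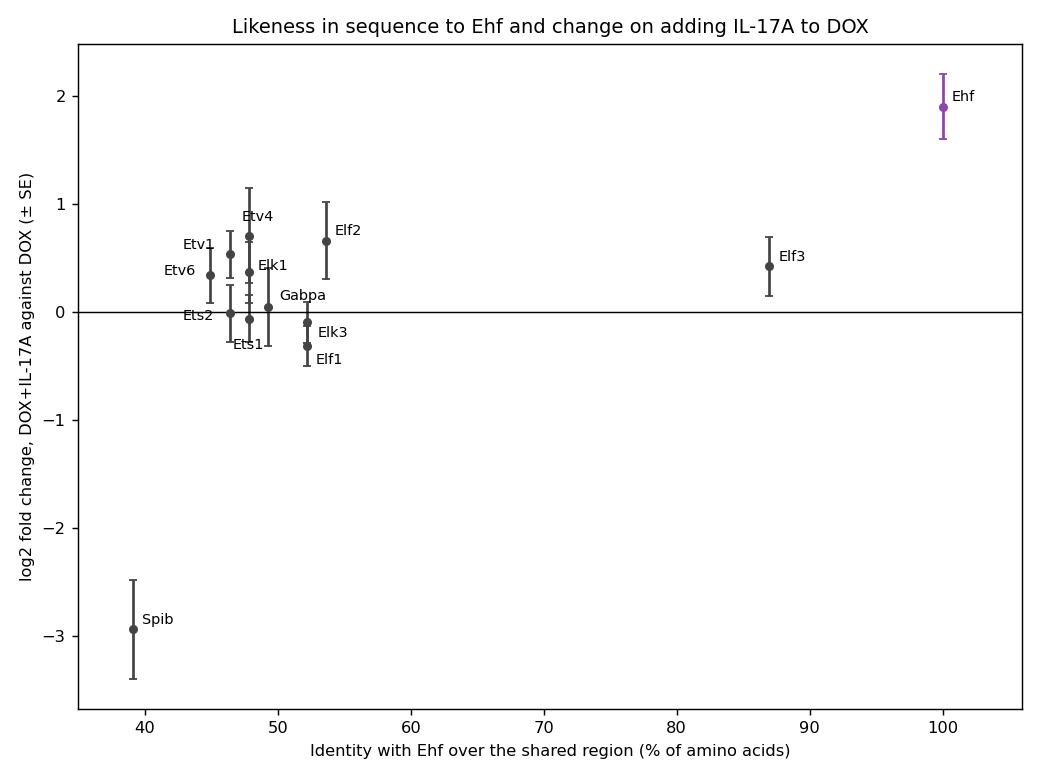
Identity with Ehf over the shared 69 amino acids (horizontal axis, %) against log2 fold change in DOX+IL-17A against DOX (vertical axis, log2(value + 1) scale) for 13 tested ETS genes; points are genes and bars ± 1 SE. Elf3, nearest to Ehf in sequence, lies at 0.42, and Spib lies at −2.94.

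Of 20 epithelial factors and genes 19 were tested. In DOX against control 3 of the 19 were called lower and 1 higher, where 6.18% of all genes were called lower and 9.15% higher. Krt19, a luminal keratin, fell by 2.08 on the log2(value + 1) scale, from 119, 225 and 255 in control to 50.1, 37.1, 47.5 and 42.7 with DOX (adjusted p = 0.0001, limma). Epcam, an epithelial adhesion protein, fell by 1.496 (adjusted p = 0.0004) and Prss8, a membrane-bound protease of epithelia, fell by 2.59 (adjusted p = 0.0004). Grhl1, an epithelial transcription factor, was called higher by 1.43 at values of at most 5.04 in DOX libraries (adjusted p = 0.0472, limma). Its control libraries had 0 to 6 reads. Grhl1 passed the filter on low values only through libraries given DOX, so its call is a description. In DOX+IL-17A against control 4 were called lower (the same 3 and Krt18) and 0 higher, where 5.95% of all genes were called lower and 6.95% higher. On adding IL-17A, 0 were called in untreated cells (median −0.16, with 0.00812% of all genes called higher and 0% lower) and 0 in DOX-treated cells (median −0.01, with 0.114% higher and 0.325% lower), so that counts of 0 are near the background.

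Genes of the IL-17A pathway had medians above 0 on adding IL-17A, with and without DOX. All 14 were tested, and their median difference was 1.102 in IL-17A against control and 1.77 in DOX+IL-17A against DOX (0.02 and −0.03 over all genes tested). In the first, 0 were called, as against 0.00812% of all genes called higher. An unadjusted p under 0.05 (limma) was found for 7 of the 14, and for 380 of the 12319 genes tested. In the second, 3 of 14 were called higher, as against 0.114% of all genes. These were Nfkbiz, a co-activator of NF-κB targets, by 1.98 ± 0.40 (SE), Zc3h12a by 1.85 ± 0.37 and Lcn2, which encodes the iron-siderophore binding protein lipocalin 2, by 3.86 ± 0.77, each with an adjusted p of 0.0408 (limma). The receptor genes did not pass: Il17ra differed by −0.42 ± 0.30 (SE) in IL-17A against control and −0.14 ± 0.28 in DOX+IL-17A against DOX, and Il17rc by −0.16 ± 0.40 and −0.05 ± 0.37, with adjusted p of 0.959 or more.

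The partners of ETS factors include co-activators, co-repressors, Runx factors and AP-1 subunits, and 13 were tested. In DOX against control 1 of the 13 was called higher (9.15% of all genes) and 0 lower (6.18%). This was the AP-1 subunit Fos, by 1.37 ± 0.43 (SE, adjusted p = 0.0330). In DOX+IL-17A against control (6.95% of all genes called higher and 5.95% lower) Fos was higher by 2.68 ± 0.46 (adjusted p = 0.0015) and the co-repressor Ncor1 lower, by −1.18 ± 0.20 (adjusted p = 0.0013, limma). Of 7 tested genes that dampen ERK signaling, 1 was called lower in DOX against control (6.18% of all genes) and 0 higher (9.15%). Spred3 was lower by −1.48 ± 0.36 (adjusted p = 0.0090, limma), at values of 1.77 to 5.07 in control and 0.32 to 0.80 in DOX libraries. These DOX libraries had 3 to 9 reads of it, near the smallest detectable amount. Spred3 passed the filter on low values only through libraries without DOX, where it was higher, so its call is a description. On adding IL-17A 0 of the 13 partners and 0 of the 7 ERK genes were called, in untreated cells (0.00812% of all genes called higher and 0% lower) or in DOX-treated cells (0.114% higher and 0.325% lower).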

How the data were processed

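Bulk mRNA was sequenced from 13 libraries of 4T1-Thy1.1 cells (QuantSeq 3′ FWD, 75 base reads, NextSeq 500). The authors aligned reads to mm10 with STAR 2.6, counted them per gene with featureCounts (Rsubread 1.30.5) and scaled them by TMM. The deposited signal is thus a TMM-normalized value per gene and library, with no read counts; each value was a whole multiple (100%, tolerance 0.01) of the value of 1 read, and reads were recovered from this. Of 13223 entries, 1 identical second entry was dropped.

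limma with trend was run on log2(value + 1) of 12319 genes that passed filterByExpr (edgeR, recovered reads), with all 13 libraries and condition as the only factor (9 residual degrees of freedom), and Benjamini-Hochberg adjustment over all genes. A call needed more than a 2-fold change with an adjusted p below 0.05, and for the interaction the adjusted p alone. Single values were compared by exact 2-sided permutation tests. Alternatives were scaling by library size, voom, edgeR and DESeq2 on recovered reads, other filters, the replicate block, pseudocount 0.1, fitting just the compared groups, and each library left out. The tests were checked on simulated data. The members and lists were chosen with earlier results of these data known. Named genes are all 10 members, up to 4 called genes of each other list and comparison by size, and the 5 genes most like Ehf. Il17ra and Il17rc are named besides as the receptor genes, and were chosen after their values were seen. Coding sequences of 14 ETS genes were translated and aligned locally to Ehf (BLOSUM62, Biopython 1.88). Versions were limma 3.58.1, DESeq2 1.42.0 and edgeR 4.0.16 in R 4.3.3, and scipy 1.17.1.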

Additional observations from a re-analysis of the deposited data

How the results depend on the processing

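No call among the members in IL-17A against control, and none for the interaction of IL-17A and DOX, appeared under any alternative run. Counts below include Ehf except in IL-17A against control. Where a comparison shares the control or the IL-17A libraries, a call of Ehf is a description and no test. With DOX against control the number of members called was 1 (Ehf), became 3 with DESeq2 and ran from 1 to 2 when single libraries were left out. The members added to Ehf were Elf2 and Etv4 with DESeq2, and Elf2 without control replicate 3. For DOX+IL-17A against DOX the number called was 1 and ran from 0 to 1 when libraries were left out. For DOX+IL-17A against IL-17A it was 0, and became 1 (Ehf, again no test) with library size only, voom and DESeq2. The difference of Ehf in DOX+IL-17A against DOX was 1.90 and ran from 1.76 to 2.001 when libraries were left out, where 3 of 13 fits lost the call; the other alternatives gave 1.90 to 2.01. Scaling by library size alone moved the median of all genes in DOX against control from 0.09 to 0.24. Over all genes, 1 was called in IL-17A against control and DESeq2 called 13, voom and edgeR 0; in DOX+IL-17A against DOX 54 were called, DESeq2 called 93 and edgeR 35, and 1 to 88 were called when libraries were left out, with 1 without DOX+IL-17A replicate 3.

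Replicate numbers were not treated as pairs. Deviations from the group means of 13 pairs of libraries with the same number correlated at −0.18 to 0.49 (mean 0.15), and 8 of 13 were over 0.1. For 50 pairs with different numbers the range was −0.56 to 0.47 (mean −0.04), and 13 of 50 were over 0.1. Whether libraries with the same number shared a source of spread was not tested. With the number as a replicate block, Ehf in DOX+IL-17A against DOX was 1.97 (adjusted p = 0.0484, limma) and stayed the 1 member called there. The block ended the call of Spib in the same comparison (−2.60).

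Signs changed only for differences that were called in neither fit. In IL-17A against control Elf3 (0.03) was −0.013 with library size only, −0.025 with voom and −0.061 with the replicate block; Elf1 (−0.02) was 0.0059 with edgeR and 0.068 with the block; Ets1 was 0.029 with the block. In DOX against control library size only gave 0.14 for Elf1 and 0.13 for Gabpa, voom gave 0.11 for Gabpa, and the block gave 0.059 for Elf1. In DOX+IL-17A against control Elf2 was 0.052 with library size only, 0.11 with voom and 0.084 with the block, Etv4 was 0.083 with the block, and Gabpa was −0.11 with edgeR and −0.15 with DESeq2. The block gave, in DOX+IL-17A against DOX, 0.071 for Ets1 and 0.095 for Ets2, and voom gave −0.064 for Gabpa. Library size only gave 0.21 for Ets2 in DOX+IL-17A against IL-17A. The cause of these changes was not tested.

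When libraries were left out, differences whose sign changed ran as follows. In IL-17A against control the range was −0.097 to 0.23 for Elf3, −0.19 to 0.11 for Elf1, −0.91 to 0.0096 for Elf2, −0.33 to 0.16 for Ets1, −0.54 to 0.061 for Ets2, −0.36 to 0.077 for Etv6 and −0.66 to 0.15 for Gabpa. In DOX against control it was −0.081 to 0.022 for Elf1, −0.54 to 0.066 for Ets2 and −0.38 to 0.43 for Gabpa. For DOX+IL-17A against control it was −0.61 to 0.31 for Elf2, −0.55 to 0.053 for Ets2, −0.65 to 0.34 for Etv4, −0.046 to 0.20 for Etv6 and −0.33 to 0.48 for Gabpa. For DOX+IL-17A against DOX it was −0.18 to 0.065 for Ets1, −0.077 to 0.060 for Ets2 and −0.15 to 0.34 for Gabpa, and in DOX+IL-17A against IL-17A −0.21 to 0.25 for Ets2.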
